A study of Mus musculus with 17 samples.

Results

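The published targets of the microRNA miR-203 that act outside DNA methylation were followed in mouse cells during reprogramming. These 9 genes are Trp63, Abl1, Bmi1, Skp2, Msi2, Lasp1, Socs3, Src and Runx2, taken by symbol from a table of 38734 genes, in which all 9 were found. The cells were mouse embryonic fibroblasts (MEF) and the cultures derived from them while the OSKM cassette (Oct4, Sox2, Klf4 and cMyc) turned them into induced pluripotent stem cells (iPSC). RNA was measured in 17 libraries, 1 for each genotype and stage, so no group had a replicate. Wild-type (WT) cells carried miR-203 WT and OSKM, knockout (KO) cells miR-203 KO and OSKM, and knock-in (KI) cells ColA1_miR203, Rosa26rtTA and OSKM. By the labels, doxycycline at 1 μg/ml was given to switch on the OSKM cassette that all 3 genotypes share and, in KI cells, the miR-203 transgene too. Each genotype was sampled as MEF and on days 0, 4, 6 and 7, and the iPSC stage was analysed here for WT and KO only. The labels name doxycycline for every library, the MEF libraries included, and do not say how many embryos or cultures a library holds.

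A microRNA guides a silencing complex to messenger RNAs, mostly through pairing of its seed, the bases 2 to 8, with a site in the 3′ untranslated region (UTR). The messenger is then degraded or less translated, and only the first of these shows in RNA abundance. In skin, miR-203 is known for its expression in differentiating keratinocytes, where it lowers the stem cell factor p63. The 9 targets belong to adhesion and kinase signalling (Src, Abl1, Lasp1), cell cycle control (Skp2), stem cell maintenance (Msi2, Bmi1, Trp63), bone cell fate (Runx2) and cytokine signalling (Socs3).

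The mature microRNA and selected target matches are shown first, as a description. Whether pairing has a part in the RNA differences was not tested. Capitals mark the seed in the microRNA and the complementary CATTTCA in the target. The matches are those of the 2 members called lower in KI cells (Src, Skp2), of 2 further members with separate KI and WT values (Msi2, Bmi1), of Abl1 and of Runx2. Each target window has 22 bases of the GRCm38 genome, read 5′ to 3′ on the strand of the gene.
miR-203-3p, chr12:112130927-112130948, plus strand, RefSeq GRCm38.p6: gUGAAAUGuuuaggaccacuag
Src, first match, chr2:157470919-157470940, plus strand: ccatttgtcctgatCATTTCAa
Src, second match, chr2:157471408-157471429, plus strand: atcccagacacgacCATTTCAc
Skp2, first match, chr15:9115116-9115137, minus strand: cttataagccaacaCATTTCAt
Skp2, second match, chr15:9113142-9113163, minus strand: ttctgggattaacaCATTTCAa
Msi2, chr11:88343355-88343376, minus strand: ttatattgtccgatCATTTCAg
Bmi1, chr2:18685848-18685869, plus strand: aaactgtagctaagCATTTCAt
Abl1, chr2:31802700-31802721, plus strand: ctggtgtttttgagCATTTCAa
Runx2, in an alternative UTR, chr17:44496112-44496133, minus strand: ctcatttatacctaCATTTCAa

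The motif CATTTCA was searched on the transcript strand of the longest 3′ UTR that GENCODE M21 gives for each gene. It was present in 8 of the 9 members, beside 18.0% of the 11980 tested genes with an annotated 3′ UTR. Among genes with a UTR of similar length to each member, the share with the motif ran from 14.2% (for Socs3) to 51.8% (for Msi2). Published targets are partly picked for such matches, so this count is not independent of how the genes became known as targets. Src and Skp2 held 2 matches each in UTRs of 1901 and 4872 bases. Trp63, Bmi1, Msi2, Lasp1, Socs3 and Abl1 held 1 each. The longest UTR of Runx2, with 3904 bases, held none, whereas 2 of the 7 distinct UTRs of that gene did. In 1 match each of Src, Skp2 and Abl1 the motif was followed by A, which lies opposite the first base of the microRNA. The expression values are per gene and do not tell which UTR the cells used.

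**Figure D1:**
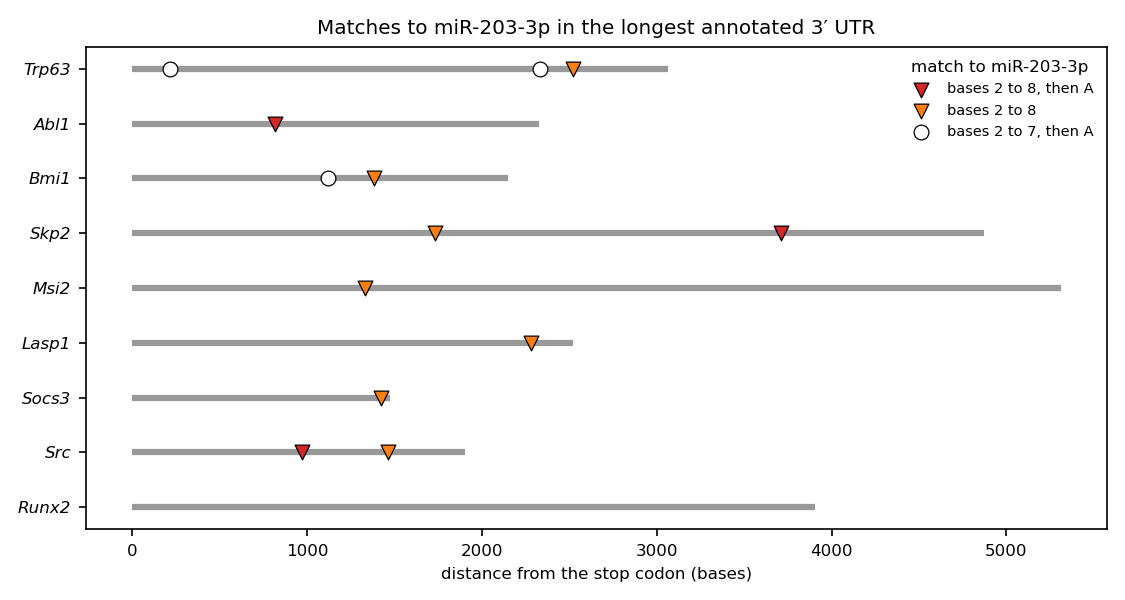
Position of matches to miR-203-3p in the longest annotated 3′ UTR of each target, in bases from the stop codon; grey bars are the UTRs, triangles are matches to bases 2 to 8 (red where followed by A) and open circles are shorter matches to bases 2 to 7 followed by A. Src and Skp2 hold 2 full matches each, and Runx2 holds none in this UTR.

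The miRNA gene Mir203 was listed at 0 in all WT and KO libraries, so these values do not check the deletion in KO cells. In KI libraries its level was 569 FPKM (read fragments per unit of transcript length and of sequencing depth) in MEF, 185 at day 0, and 7903, 5863 and 5470 at days 4, 6 and 7. Libraries of polyadenylated RNA do not hold the mature microRNA, and a short gene has an unstable FPKM. The WT libraries of MEF and day 4 stand apart: Xist, the RNA of the silenced X chromosome, was at 46.9 and 48.0 FPKM there and at most at 3.23 elsewhere. Ddx3y, a gene of the Y chromosome, had 0.0179 FPKM in WT MEF, 2.74 at WT day 4 and 1.51 in WT iPSC, against 14.5 to 20.0 in the others. The late KI differences of the 8 tested members from WT are given with and without the first pair of these libraries. Other member results are so given where this changes their call. Partner, marker and other listed genes are given only with these libraries kept, so the dependence of their calls on them is not shown. The factors of the OSKM cassette go against the label in the late KI libraries. At days 4, 6 and 7 Pou5f1 (Oct4) was at 266, 37.4 and 85.3 FPKM in WT and at 255, 852 and 954 in KO, but at 0.851, 0.491 and 0.675 in KI, where it had 0.960 at day 0. Sox2 was at 2.26 to 19.0 FPKM in WT, 29.1 to 37.9 in KO and at most 0.167 in KI at those days. In KI, Klf4 was at 25.7 to 37.8 FPKM against 25.8 at day 0, and Myc at 4.38 to 7.40 against 48.8. Fibroblast markers (Col1a1 and 7 others) summed to 2192 to 3251 FPKM in MEF and at day 0. At days 4, 6 and 7 the sums of 8 pluripotency markers were 45.3 to 289 FPKM in WT, 286 to 1580 in KO and 0.996 to 1.42 in KI, where Utf1 was at 0 in all 3 libraries. The sums of 13 macrophage markers at those days were 1449 to 4307 FPKM in WT, 37.5 to 118 in KO and 2021 to 2288 in KI, with no marker listed at 0. At the iPSC stage the pluripotency markers summed to 4071 FPKM in WT and 4704 in KO. Skp2 (with Lmbrd2), Runx2 (with Supt3 and 3 antisense genes), Msi2 (with Gm15893) and Abl1 (with Gm13427) overlap genes of the other strand, and no source used here states whether counting used the strand, so their values could hold reads of both.

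Levels of the 9 targets in KI and WT cells were compared first, since KI cells gain miR-203. The KI libraries labelled days 4, 6 and 7 also lack the rise of Pou5f1 and Sox2 seen in WT and KO, and the 2 differences cannot be told apart in any late comparison of KI. At days 4, 6 and 7 the kinase gene Src and the ubiquitin ligase gene Skp2 were lower in KI than in WT cells, and no member was called higher. Differences are given as log2(FPKM + 1) with the standard error (SE) of limma's linear model over 15 libraries, and a call needs a Benjamini-Hochberg adjusted p below 0.05 over 13837 genes. Of the 8 members that passed the filter of a mean of 1 FPKM, 2 were called, beside 2.44% of all genes tested at these days. Trp63 did not pass this filter. The median difference was -0.33 over the 8 members and -0.16 over all genes tested. With libraries scaled to their upper quartile the median of all genes moved to 0.001, so the median gene itself was lower in KI on the deposited scale.

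**Figure D2:**
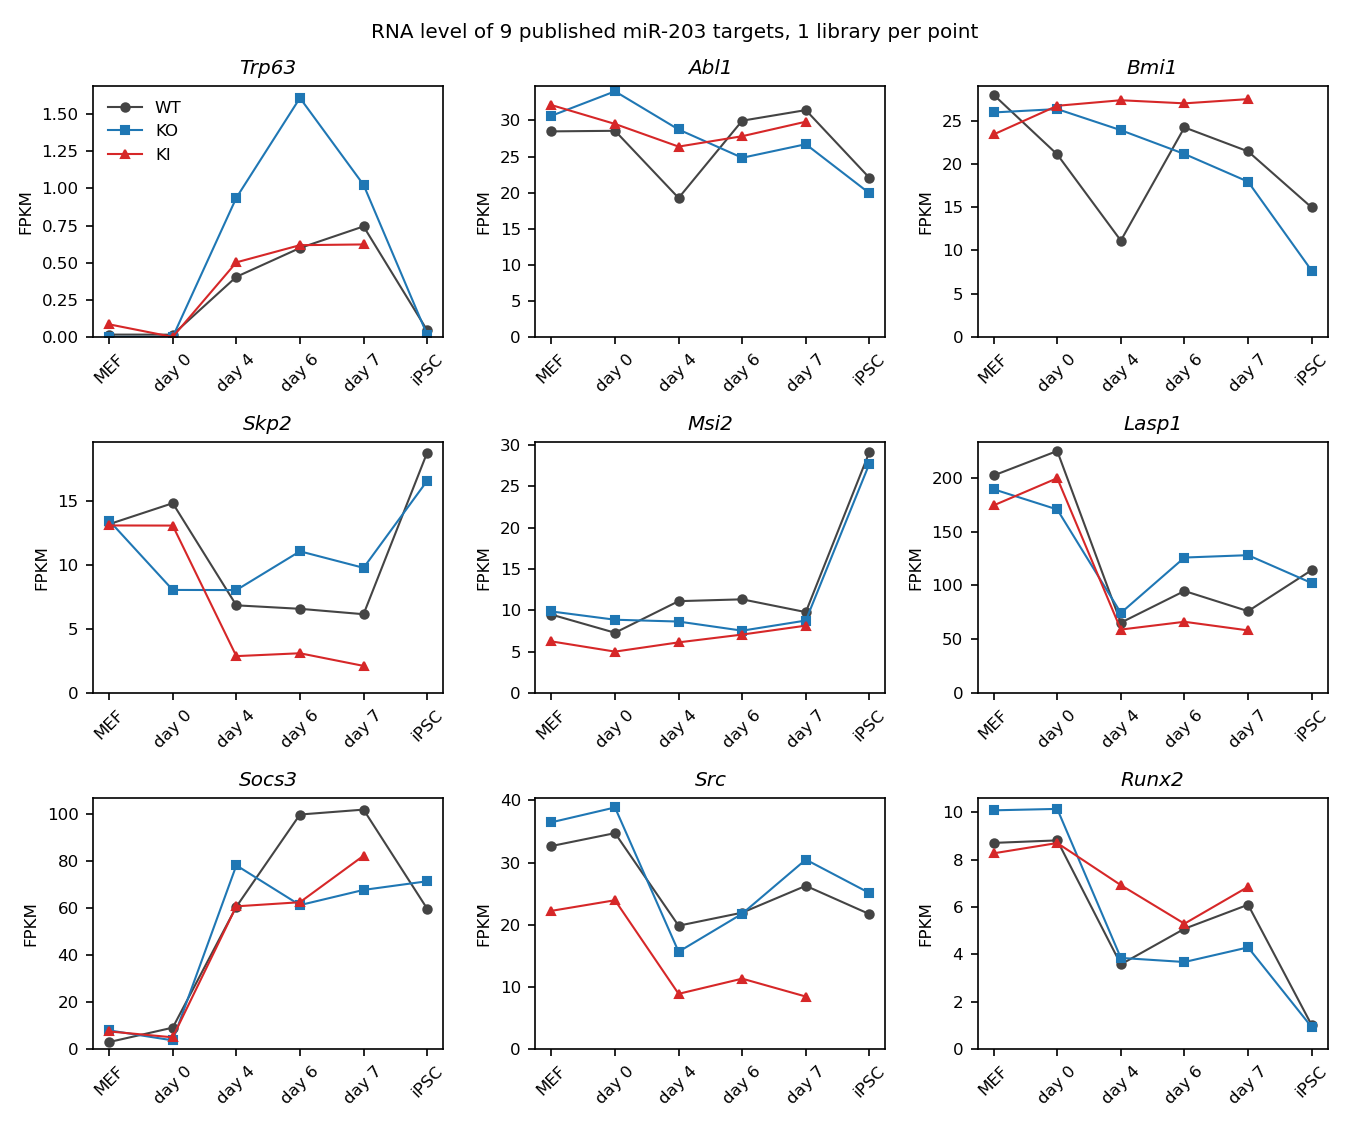
RNA level (FPKM, linear axis from 0) of each target at each stage; every point is 1 library, and lines join the libraries of WT (black circles), KO (blue squares) and KI (red triangles). KI values of Src lie below both other genotypes at every stage measured, and those of Skp2 do so from day 4 on.

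Src, a membrane-bound tyrosine kinase of focal adhesions (ENSMUSG00000027646, GRCm38 chromosome 2, 157418444 to 157471862, plus strand), had 2 seed matches above. In WT its level was 32.6 FPKM in MEF, 34.7 at day 0, 19.8 at day 4, 21.9 at day 6, 26.2 at day 7 and 21.7 in iPSC. In KO it was 36.5, 38.9, 15.6, 21.8, 30.5 and 25.1 FPKM at the same stages. In KI it was 22.2 FPKM in MEF, 23.9 at day 0, 8.87 at day 4, 11.3 at day 6 and 8.43 at day 7. KI was the lowest of the 3 genotypes at all 5 stages, and KI and WT values at the late days did not overlap, as for 35.4% of all genes tested. The late difference of KI from WT was -1.17 ± 0.18 (SE, adjusted p = 0.0241, limma), and under upper-quartile scaling it was -0.98 (adjusted p = 0.0183). Without the WT libraries of MEF and day 4 it was -1.12 and no longer called (adjusted p = 0.0941). Leaving out the libraries of the MEF stage, day 0, day 6 or day 7 also ended the call, with differences from -1.30 to -0.99 and adjusted p from 0.0866 to 0.175.

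Averaged over all 5 stages, Src was 0.91 ± 0.17 (SE) lower in KI, with an adjusted p of 0.0573 in the fit of deposited values. Upper-quartile scaling gave -0.80 with an adjusted p of 0.0313, and without the WT libraries of MEF and day 4 the adjusted p was 0.331. No member was called over the 5 stages, beside 0.397% of all genes tested. Beside 1240 of all 13837 genes tested, 2 of 8 members had an unadjusted p below 0.05 in limma. These 2 were Src and Msi2, named after their values were seen. The difference of Src was already -0.54 in MEF and -0.52 at day 0, and -1.08, -0.90 and -1.53 at days 4, 6 and 7. The change of the difference from the early stages (MEF and day 0) to the late days was -0.64 ± 0.28 (SE, adjusted p = 0.611). That change was called for no member and for 0.0723% of all genes tested. Beside 1146 of all 13837 genes tested, 1 of 8 members (Skp2) had an unadjusted p below 0.05 in limma.

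Skp2, the substrate-binding subunit of an SCF ubiquitin ligase that marks the cell cycle inhibitor p27 for destruction (ENSMUSG00000054115, chromosome 15, 9111985 to 9155425, minus strand), was the other called member. Its levels in WT were 13.2 FPKM in MEF, 14.8 at day 0, 6.85, 6.58 and 6.15 at days 4, 6 and 7, and 18.8 in iPSC. KO libraries had 13.5, 8.05, 8.04, 11.1, 9.78 and 16.6 FPKM at these stages. KI libraries had 13.1 FPKM in MEF and 13.1 at day 0, then 2.88, 3.10 and 2.11 at days 4, 6 and 7. The 3 MEF libraries lay within 13.1 to 13.5 FPKM, and at the late days the genotypes had separate ranges with KI lowest and KO highest. Values of KI and WT did not overlap at those days for 35.4% of all genes tested. The share was 26.3% for KO and WT and 59.9% for KI and KO. The late difference of KI from WT was -1.03 ± 0.18 (SE, adjusted p = 0.0307, limma), and -0.89 under upper-quartile scaling (adjusted p = 0.0335). Without the WT libraries of MEF and day 4 it was -0.97 (adjusted p = 0.0941), and without the libraries of MEF, day 0, day 6 or day 7 the adjusted p was 0.103 to 0.221. With no filter on low values it was 0.0547. The change from early to late was -0.94 ± 0.28 (SE, adjusted p = 0.525).

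Markers of cycling cells moved in the same libraries as Skp2. The 6 markers summed to 66.0 to 84.0 FPKM in KI at the late days, against 181 to 303 in WT and 174 to 413 in KO, and none was at 0. Of the 6, Mki67, a proliferation antigen named here after its value was seen, was called lower in KI than in WT at the late days (-1.30, adjusted p = 0.0356) and none was called higher. The part of this in the Skp2 level was not tested, and in bulk RNA fewer cycling cells and less RNA per cell cannot be told apart. Of 12 tested genes of the SCF and its substrates, 2 were called lower in KI than in WT and none higher, with a list median of -0.39. Over all genes tested, 2.44% were called at these days. Ccna2, the cyclin A2 of DNA replication, fell by 1.58 ± 0.27 (SE, adjusted p = 0.0302). Cks2, a small cyclin-dependent kinase partner, fell by 1.26 ± 0.24 (SE, adjusted p = 0.0407).

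Msi2, an RNA-binding protein of the Musashi family that supports the self-renewal of blood stem cells (ENSMUSG00000069769, chromosome 11, 88339382 to 88718513, minus strand), was lower in KI at all 5 stages, as were 16.5% of all genes tested, without passing the test. In WT its level was 9.48 FPKM in MEF, 7.28 at day 0, 11.1 at day 4, 11.3 at day 6, 9.77 at day 7 and 29.1 in iPSC. In KO it was 9.85, 8.85, 8.63, 7.53, 8.76 and 27.7 FPKM. In KI it was 6.23, 5.0, 6.12, 7.06 and 8.14 FPKM from MEF to day 7. KI values at the late days lay below all WT values, and those of KO did so too. Values did not overlap for 35.4% of all genes tested between KI and WT and for 26.3% between KO and WT. The KI difference from WT was -0.54 ± 0.13 (SE, adjusted p = 0.0668) at the late days and -0.52 ± 0.13 (SE, adjusted p = 0.191) over the 5 stages. The fitted change of this difference from early to late was -0.04 ± 0.20 (SE, adjusted p = 0.951). Without the WT libraries of MEF and day 4 the late difference was -0.48 (adjusted p = 0.178). Of 10 tested Musashi and RNA-binding partners, none was called in either direction at the late days. Among them 1 had an unadjusted p below 0.05 in limma, beside 3507 of all 13837 genes tested.

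Lasp1, an actin-binding LIM protein of focal adhesions (ENSMUSG00000038366, chromosome 11, 97799000 to 97838764, plus strand), had the highest mean level of the members. WT libraries had 202 FPKM in MEF, 225 at day 0, 65.3, 94.8 and 76.0 at days 4, 6 and 7, and 114 in iPSC. KO libraries had 189, 171, 74.4, 126, 128 and 102 FPKM. KI libraries had 174, 199.7, 58.9, 66.2 and 58.2 FPKM up to day 7. KI lay below WT at all 5 stages, but by little at day 4, and the KI and WT ranges of the late days overlapped. The late difference was -0.35 ± 0.16 (SE, adjusted p = 0.2202). Under upper-quartile scaling it was -0.14, and without the WT libraries of MEF and day 4 it was -0.33.

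Bmi1 (ENSMUSG00000026739, chromosome 2, 18677018 to 18686629, plus strand) encodes a subunit of the Polycomb repressive complex PRC1 that represses the Cdkn2a locus. It has a seed match and passed no test of KI against WT. In WT it was at 28.0 FPKM in MEF, 21.1 at day 0, 11.1 at day 4, 24.2 at day 6, 21.4 at day 7 and 15 in iPSC. In KO it was at 25.9, 26.3, 23.9, 21.1, 17.9 and 7.66 FPKM. In KI it was at 23.4, 26.7, 27.4, 27.0 and 27.5 FPKM. KI values of the late days lay above all WT and all KO values and hardly moved, while the WT day 4 library was low. Values did not overlap for 35.4% of all genes tested between KI and WT and for 59.9% between KI and KO. The late difference from WT was 0.57 ± 0.25 (SE, adjusted p = 0.199), and it was 0.20 without the WT libraries of MEF and day 4. Of 17 tested genes, PRC1 subunits listed with Cdkn2a and Cdkn2b, 1 was called, beside 2.44% of all genes tested. The subunit gene Pcgf3 was 0.60 ± 0.10 (SE) higher in KI (adjusted p = 0.0304).

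Runx2, the transcription factor that commits cells to bone (ENSMUSG00000039153, chromosome 17, 44495987 to 44814797, minus strand), passed no test of KI against WT. Its levels in WT were 8.70 FPKM in MEF, 8.81 at day 0, 3.57, 5.08 and 6.09 at days 4, 6 and 7, and 1.01 in iPSC. In KO they were 10.1, 10.1, 3.85, 3.67, 4.29 and 0.924 FPKM, and in KI 8.26, 8.70, 6.92, 5.29 and 6.85. KI lay slightly below WT in MEF and at day 0 and above it at each late day, most at day 4. The late difference was 0.33 ± 0.15 (SE, adjusted p = 0.202), and 0.13 without the WT libraries of MEF and day 4. Supt3, which overlaps Runx2 on the other strand, was at 11.5 FPKM in the WT day 4 library and at 3.98 to 7.92 in the others. No exonic base of Supt3 is shared with Runx2.

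Abl1, a cytoplasmic and nuclear tyrosine kinase (ENSMUSG00000026842, chromosome 2, 31688376 to 31804227, plus strand), carries a seed match followed by A and passed no test of KI against WT. WT levels were 28.5 FPKM in MEF, 28.6 at day 0, 19.3 at day 4, 30.0 at day 6, 31.4 at day 7 and 22.1 in iPSC. KO levels were 30.6, 34.0, 28.8, 24.8, 26.7 and 19.9 FPKM, and KI levels 32.1, 29.5, 26.4, 27.8 and 29.8. KI values overlapped those of WT at the late days, and the lowest of all was the WT day 4 library. The late difference was 0.09 ± 0.16 (SE, adjusted p = 0.762), and -0.13 without the WT libraries of MEF and day 4. None of 13 tested kinases and regulators around Abl and Src was called at these days. Among them 2 had an unadjusted p below 0.05 in limma, beside 3507 of all 13837 genes tested.

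Socs3, a feedback inhibitor of cytokine signalling through JAK and STAT3 (ENSMUSG00000053113, chromosome 11, 117966079 to 117970047, minus strand), varied without a common order of the genotypes. WT had 2.92 FPKM in MEF, 9.06 at day 0, 60.5 at day 4, 99.8 at day 6, 102 at day 7 and 59.7 in iPSC. KO had 7.90, 3.64, 78.2, 61.2, 67.7 and 71.4 FPKM, and KI had 7.45, 4.95, 60.7, 62.5 and 82.3. The WT library was lowest in MEF and highest at day 0, day 6 and day 7. The late difference of KI from WT was -0.32 ± 0.40 (SE, adjusted p = 0.620), and without the WT libraries of MEF and day 4 it was -0.57 ± 0.18 (SE, adjusted p = 0.191). Over the 5 stages it was -0.12, and -0.66 without them (adjusted p = 0.376). Of 17 tested genes from cytokine to STAT3, 1 was called at the late days, beside 2.44% of all genes tested. Lif, the cytokine that sustains mouse pluripotent cells, was 1.00 ± 0.14 (SE) higher in KI (adjusted p = 0.0198).

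Trp63, the p53 family transcription factor of epithelial stem cells (ENSMUSG00000022510, chromosome 16, 25683763 to 25892102, plus strand), reached at most 1.61 FPKM. In WT it was at 0.0156 FPKM in MEF, 0.0154 at day 0, 0.405 at day 4, 0.599 at day 6, 0.744 at day 7 and 0.0446 in iPSC. In KO it was listed at 0 in MEF and at day 0, and was at 0.937, 1.61 and 1.02 FPKM at days 4, 6 and 7 and 0.0147 in iPSC. In KI it was at 0.0848 in MEF, listed at 0 at day 0, and at 0.502, 0.618 and 0.623 FPKM at the late days. KI and WT values overlapped at the late days, and every KO value lay above them. Values did not overlap for 26.3% of all genes tested between KO and WT and for 59.9% between KI and KO. In a fit with no filter on low values the KI difference from WT was 0.003 ± 0.10 (SE, adjusted p = 1, limma). Of 8 tested p63 partners and epithelial targets, none was called in KI against WT at the late days, with a list median of -1.80. Among these 8, 4 had an unadjusted p below 0.05 in limma, beside 3507 of all 13837 genes tested. Epithelial markers summed to 0.179 to 0.476 FPKM in KI, with Grhl2 at 0 in all 3 libraries, against 17.1 to 116 in WT and 70.5 to 1187 in KO, and their part in these values was not tested.

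Single libraries of each stage were set side by side as a description, and a difference was counted from 1 (log2) on where at least 1 of both libraries reached 5 FPKM. For KI against WT, the members past it were Socs3 in MEF (1.11, where 4.95% of genes were past it), none at day 0 (4.63% of genes), and Bmi1 (1.23), Src (-1.08) and Skp2 (-1.02) at day 4 (27.6%). None was past it at day 6 (7.74%), and Src (-1.53) and Skp2 (-1.20) were at day 7 (9.44%). Bmi1 at day 4 was past it in KO as well (1.04, with 10.8% of genes), and the shared WT library of that day had the lowest WT level. Src, Skp2, Msi2 and Lasp1 lay below WT in KI at 5 of 5 stages, as did 16.5% of all genes tested. With libraries scaled to their upper quartile Lasp1 no longer did, and the share of all genes was 10.5%. KO against WT gave Socs3 in MEF (1.18, with 4.21%) and at day 0 (-1.12, with 6.66%). No member was past it in KO at day 6 (24.7% of genes), day 7 (31.2%) or the iPSC stage (9.14%).

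**Figure D3:**
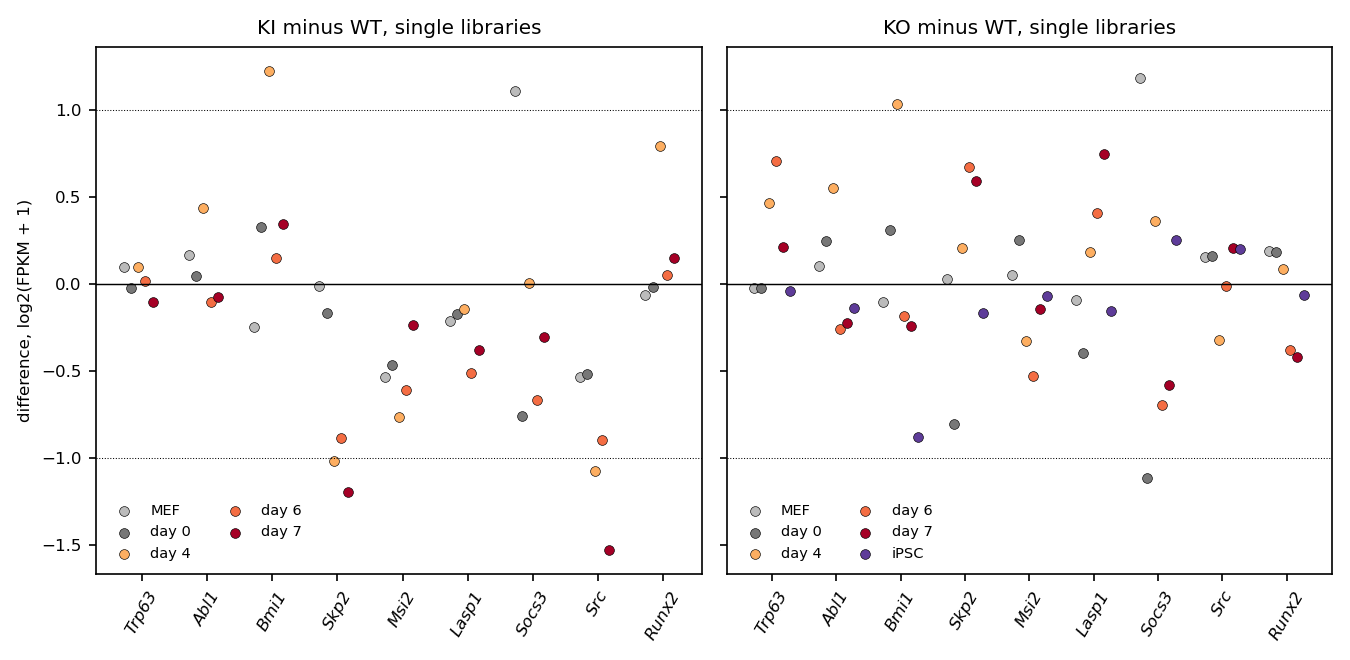
Difference from WT of single KI (left) and KO (right) libraries at the same stage, in log2(FPKM + 1), for each target; each point is 1 pair of libraries, coloured by stage, and dotted lines mark a difference of 1. All 5 KI points of Src, Skp2, Msi2 and Lasp1 lie below 0, and the day 4 points of Bmi1 lie above 1 in both panels.

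KO cells were compared with the same WT libraries to ask whether targets stand higher in KO, and the KI and KO comparisons therefore share their controls. Mir203 was listed at 0 in WT too, so these values do not show a loss of miR-203. At the late days macrophage markers summed to 1449 to 4307 FPKM in WT and 37.5 to 118 in KO. Pluripotency markers summed to 45.3 to 289 FPKM in WT and 286 to 1580 in KO. The part of such differences in the KO values was not tested. No member of 8 was called in KO against WT at the late days, beside 14.7% of all genes tested. Beside 4794 of all 13837 genes tested, 3 members had an unadjusted p below 0.05 in limma. These were Skp2 at 0.49 ± 0.18 (SE, adjusted p = 0.0970), Lasp1 at 0.44 ± 0.16 (SE, adjusted p = 0.0972) and Msi2 at -0.33 ± 0.13 (SE, adjusted p = 0.103). Skp2 and Trp63 lay above and Msi2 below all WT values of these days, where 26.3% of all genes tested did not overlap. Src, at -0.04 ± 0.18 (SE), and Abl1, at 0.02 ± 0.16 (SE), had differences smaller than their errors. The median of all genes was 0.17, and under upper-quartile scaling it was -0.01, with Skp2 at 0.29, Lasp1 at 0.22 and Msi2 at -0.53 (adjusted p = 0.0519). Quantile normalization gave Msi2 as called lower in KO (-0.58, adjusted p = 0.0434).

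Several of these values hung on the day 4 libraries. Without the day 4 libraries Lasp1 was called higher in KO (0.57, adjusted p = 0.00795), Skp2 was called higher (0.63, adjusted p = 0.0412), and Runx2 was called lower (-0.40, adjusted p = 0.00552). Abl1 turned from 0.02 to -0.24 and was called lower (adjusted p = 0.0425). Without the WT libraries of MEF and day 4, Runx2 alone of the 8 was called (-0.44, adjusted p = 0.0217). Trp63, fitted with no filter on low values, was 0.46 ± 0.10 (SE, adjusted p = 0.0349) higher in KO on a scale that understates changes of low genes. Of the 8 tested p63 partners and epithelial targets, 4 were called higher in KO and none lower, Itgb4 at 3.04 ± 0.72 (SE, adjusted p = 0.0318) and Cdh1 at 2.87 ± 0.70 (SE, adjusted p = 0.0346) with the largest differences. The integrin gene Itgb4 and the cadherin gene Cdh1 encode adhesion proteins of epithelial cells. Of 17 genes, PRC1 subunits listed with Cdkn2a and Cdkn2b, 6 were called higher and none lower, with Pcgf6 at 1.32 ± 0.22 (SE, adjusted p = 0.0123). Over all 13837 genes tested, 1314 were called higher and 723 lower in KO.

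KI and KO cells were then compared directly, which leaves the WT libraries out of the contrast. Skp2, Src and Lasp1 were lower and Runx2 was higher in KI than in KO at the late days, 4 of 8 members beside 46.3% of all genes tested. Skp2 differed by -1.52 ± 0.18 (SE, adjusted p = 0.00168), Src by -1.13 ± 0.18 (SE, adjusted p = 0.00348), Lasp1 by -0.79 ± 0.16 (SE, adjusted p = 0.00719) and Runx2 by 0.57 ± 0.15 (SE, adjusted p = 0.0156). The share of members called is close to that of all genes. Fibroblast markers summed to 22320 to 25740 FPKM in KI and 4500 to 12130 in KO at these days, and macrophage, epithelial, pluripotency and cycling markers differed as given above. Their part in these 4 differences was not tested. Values of KI and KO did not overlap for these 4, for Trp63 (lower) and for Bmi1 (higher), and for 59.9% of all genes tested.

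**Figure D4:**
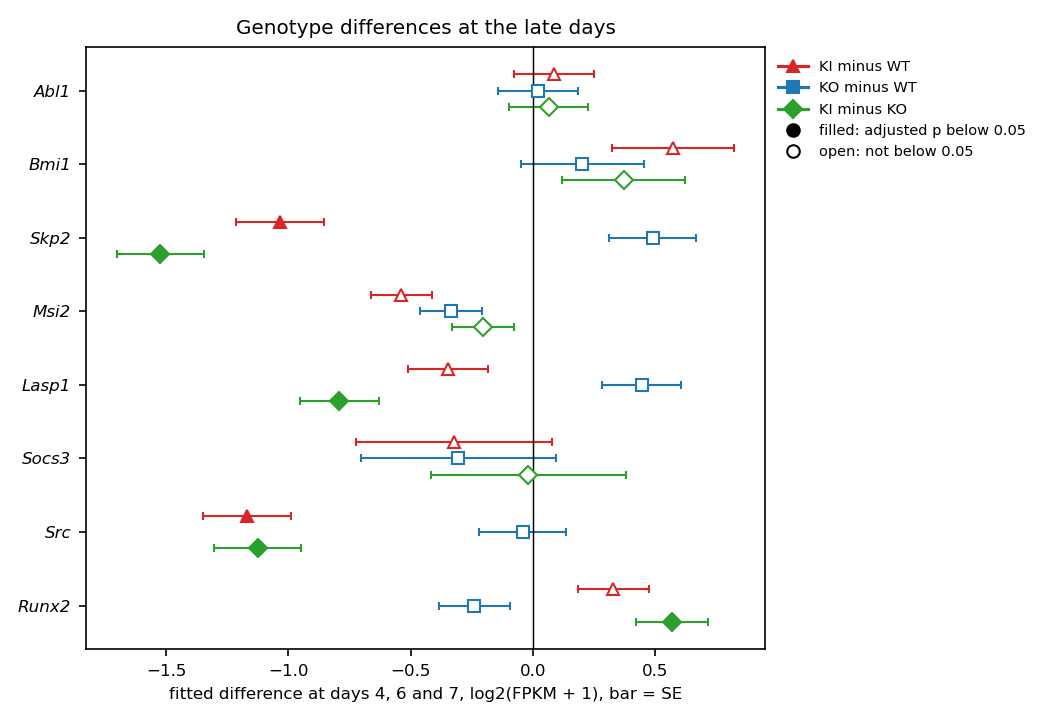
Fitted genotype differences at days 4, 6 and 7 in log2(FPKM + 1) for the 8 targets above the filter, with bars of 1 SE; triangles are KI minus WT, squares KO minus WT and diamonds KI minus KO, filled where the adjusted p is below 0.05. Src and Skp2 are filled for KI minus WT, and Skp2, Src, Lasp1 and Runx2 for KI minus KO.

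The median of all genes was -0.30 in this comparison and 0.05 under upper-quartile scaling. On that scale Skp2 was at -1.17, Src at -0.72 and Runx2 at 0.93, all still called, and Lasp1 at -0.37 was not (adjusted p = 0.0514). Without the libraries of day 6 or day 7 the adjusted p of Lasp1 was 0.0781 and 0.0805, and that of Runx2 was 0.0587 to 0.0952 without MEF, day 0, day 6 or day 7. Bmi1, at 0.37 ± 0.25 (SE, adjusted p = 0.251), was called without the day 4 libraries (0.46, adjusted p = 0.0333) and in the fit without the WT libraries of MEF and day 4 (0.37 ± 0.10 SE, adjusted p = 0.0219). Over all 13837 genes tested, 4958 were called lower and 1446 higher in KI than in KO. Of 12 SCF and substrate genes 5 were called lower and 1 higher in KI. Cks2 was at -2.19 ± 0.24 (SE, adjusted p = 0.00134), and Cdkn1c, which encodes the cell cycle inhibitor p57, was at 1.24 ± 0.21 (SE, adjusted p = 0.00408). The p63 partners held 7 lower and 1 higher of 8, with the keratin gene Krt14 at -6.61 ± 0.84 (SE, adjusted p = 0.00195). Among focal adhesion partners of Lasp1 2 of 10 were lower and 1 higher, and among the Abl and Src genes 7 of 13 were lower, Yes1 by -0.86 ± 0.14 (SE, adjusted p = 0.00404).

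The course of the targets was tested with the 3 genotypes as the separate samples of a stage. The fit covered 14240 genes and 17 libraries, including the late KI libraries that lack the rise of Pou5f1 and Sox2. No KI library of the iPSC stage entered, so iPSC differences depend on an additive genotype term. From day 0 to day 4 Socs3 rose and Lasp1, Src and Runx2 fell, 4 of 8 members beside 22.3% of all genes tested. Socs3 rose by 3.36 ± 0.36 (SE, adjusted p = 1.1e-04), Lasp1 fell by 1.57 ± 0.23 (SE, adjusted p = 7.8e-04), Src fell by 1.13 ± 0.21 (SE, adjusted p = 0.00286) and Runx2 fell by 0.86 ± 0.21 (SE, adjusted p = 0.0114). Each of these 4 moved the same way in all 3 genotypes. Skp2, at -0.96 ± 0.38 (SE, adjusted p = 0.1004), was hardly lower at day 4 in KO. It was called under upper-quartile scaling (-1.02, adjusted p = 0.0385) and without the KO libraries (-1.44, adjusted p = 0.0323). Without all WT libraries the calls of Lasp1 (-1.47, adjusted p = 0.0784), Src (-1.30, adjusted p = 0.0667) and Runx2 (-0.75, adjusted p = 0.221) ended. The call of Runx2 also ended without the KO libraries (-0.70, adjusted p = 0.0864) and without the WT libraries of MEF and day 4 (-0.70, adjusted p = 0.0738).

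Partners of the same pathways moved over these days too, beside 1756 genes that rose and 1426 that fell among all 14240 tested. Of 10 tested focal adhesion partners of Lasp1, 9 fell and none rose, with a list median of -1.87 against 0.007 over all genes. Vcl, which encodes the adhesion protein vinculin, fell by 2.68 ± 0.21 (SE, adjusted p = 1.5e-05), and Lpp, a LIM protein of adhesions, fell by 2.42 ± 0.33 (SE, adjusted p = 4.3e-04). Of 14 tested Abl and Src genes 7 fell and none rose, among them the Src substrate gene Bcar1 (-1.57 ± 0.24 SE, adjusted p = 8.5e-04) and Abl2 (-1.08 ± 0.24 SE, adjusted p = 0.00857). Of 17 genes from cytokine to STAT3, 7 rose and 1 fell. Bcl3, a nuclear IκB protein, rose by 3.51 ± 0.25 (SE, adjusted p = 7.8e-06), Il6st, the shared receptor chain gp130, rose by 1.93 ± 0.55 (SE, adjusted p = 0.0282), and the cytokine Il11 fell by 1.85 ± 0.27 (SE, adjusted p = 7.3e-04). Macrophage marker sums were 9.04 to 207.5 FPKM at day 0 and 37.5 to 2021 at day 4, beside the rise of Socs3. In KO the sum went from 9.04 to 37.5 FPKM and Socs3 from 3.64 to 78.2, and the part of macrophage RNA in this rise was not tested. Trp63 was 0.67 ± 0.15 (SE, adjusted p = 0.0136) higher at day 4 in the fit with no filter.

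At the iPSC stage, with 1 WT and 1 KO library, 4 of 8 members differed from day 7, beside 49.7% of all genes tested. Msi2 rose by 1.43 ± 0.18 (SE, adjusted p = 1.3e-04) and Skp2 by 1.34 ± 0.44 (SE, adjusted p = 0.0260), while Runx2 fell by 1.69 ± 0.23 (SE, adjusted p = 2.3e-04). Bmi1 fell by 0.87 ± 0.34 (SE, adjusted p = 0.04998), at the threshold, and its call ended with no filter, under quantile normalization and without the KO, the KI or the late KI libraries (adjusted p from 0.0505 to 0.378). The call of Skp2 ended without the WT libraries (1.20, adjusted p = 0.335) or without the KI libraries (1.09, adjusted p = 0.0538). Lasp1 was called higher without the KO libraries (0.63, adjusted p = 0.0285), and Abl1 was called lower without the WT libraries of MEF and day 4 (-0.47, adjusted p = 0.0210). Trp63 fell by 0.84 ± 0.17 (SE, adjusted p = 0.00345) in the fit with no filter. Of the Musashi list 6 of 10 rose and none fell, led by Lin28a, an RNA-binding protein of pluripotent cells, at 3.89 ± 0.72 (SE, adjusted p = 0.00139). Runx1, the blood-forming relative of Runx2, fell by 2.86 ± 0.31 (SE, adjusted p = 4.5e-05).

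Against MEF, iPSC had higher Socs3 and Msi2 and lower Runx2, Bmi1, Lasp1, Src and Abl1, 7 of 8 members beside 41.8% of all genes tested. Socs3 rose by 3.30 ± 0.42 (SE, adjusted p = 9.6e-05), Msi2 rose by 1.5 ± 0.18 (SE, adjusted p = 7.0e-05) and Runx2 fell by 2.27 ± 0.23 (SE, adjusted p = 2.3e-05). Bmi1 fell by 1.09 ± 0.34 (SE), Lasp1 by 0.92 ± 0.26 (SE), Src by 0.65 ± 0.23 (SE) and Abl1 by 0.50 ± 0.18 (SE), with adjusted p from 0.0163 to 0.0441. Skp2, at 0.15 ± 0.44 (SE), was not called. Its levels were 13.1 to 13.5 FPKM in MEF, and 18.8 in WT iPSC and 16.6 in KO iPSC. The calls of Lasp1 and Src ended without the WT libraries of MEF and day 4 (adjusted p = 0.0564 and 0.0679) and without all WT or all KI libraries (0.0616 to 0.282). The calls of Bmi1, Src and Abl1 ended without all KO libraries (0.147 to 0.366), and that of Bmi1 without all KI libraries (0.0512). That of Abl1 also ended under both other scalings and without all WT, all KI or the late KI libraries (0.0522 to 0.163), and that of Src with no filter (0.0532). Among focal adhesion partners 8 of 10 fell and none rose, with Zyx, the zyxin gene, at -4.14 ± 0.22 (SE, adjusted p = 2.4e-07).

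The order of the members by level per transcript length (FPKM) differed between the ends of the course. In WT MEF it ran from Lasp1 (202 FPKM) through Src (32.6), Abl1 (28.5), Bmi1 (28.0), Skp2 (13.2), Msi2 (9.48), Runx2 (8.70) and Socs3 (2.92) to Trp63 (0.0156). In WT iPSC it ran from Lasp1 (114) through Socs3 (59.7), Msi2 (29.1), Abl1 (22.1), Src (21.7), Skp2 (18.8), Bmi1 (15) and Runx2 (1.01) to Trp63 (0.0446). Neighbours such as Abl1 and Bmi1 in MEF, or Abl1 and Src in iPSC, differed by less than the libraries of 1 stage did among themselves.

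Among themselves the members fell into no single course. Over the 17 libraries, Pearson's r of log2(FPKM + 1) was highest between Abl1 and Bmi1 (0.845), and lowest between Lasp1 and Socs3 (-0.841). Src and Lasp1 (0.808), Src and Skp2 (0.774) and Lasp1 and Skp2 (0.770) ran together, as did Runx2 with Abl1 (0.806) and Bmi1 (0.798). Msi2 ran against Runx2 (-0.814) and Bmi1 (-0.740). These values describe 17 libraries that share genotypes, stages and depth, and carry no test.

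The genes with the course most like each member, by r over the same 17 libraries, were Stard3nl for Src (0.924), Rap2c for Abl1 (0.907), Tmem126a for Lasp1 (0.966) and Naa50 for Skp2 (0.987). They were Gkap1 for Msi2 (0.930), Tbc1d8b for Bmi1 (0.966), Il6ra for Trp63 (0.954), Palld for Runx2 (0.976) and Bcl3 for Socs3 (0.972). The next ranks were Pcbp2 (0.978) and Atad2 (0.975) for Skp2, Tbk1 (0.913) and Serinc2 (0.905) for Src, and Irak3 (0.960) and A4galt (0.959) for Socs3.

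Genes with the motif were set beside the rest as a description, with no test. Those with CATTTCA in the longest 3′ UTR had a median late difference of KI from WT of -0.09, and genes without it had -0.19. Of the 2155 genes with the motif 13 were called higher and 43 lower, and of the 9825 without it 63 and 171. Genes with the motif had longer UTRs, with a median of 2748 against 1138 bases, and UTR length was not matched here. Of 16 further published miR-203 targets 15 were tested, none was called lower, and Prkca, a protein kinase C gene, was 0.88 ± 0.18 (SE) higher in KI (adjusted p = 0.0461).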

How the data were processed

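RNA was measured by stranded sequencing of polyadenylated RNA in 17 libraries, 1 for each genotype and stage. The deposited FPKM values were computed by the authors, and the tools named per the submitters' processing notes are Cufflinks 2.2.1, TopHat2 2.0.10, SAMtools 0.1.16, Bowtie 1.0.0 and FastQC, with the builds GRCm38 and mm10. Scaling between libraries and read depth are not stated there, so no counting error is given; per-library sums ran from 510501 to 690770 FPKM. Of 38756 lines, 41 that repeated 19 gene IDs were summed.

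Differences of log2(FPKM + 1) went into linear models of limma 3.58.1 (R 4.3.3; 2-sided, variance trend, Benjamini-Hochberg adjustment over all genes that averaged 1 FPKM or more). Genotype fits used 15 libraries with stage as a term, and with a genotype-by-period term for the late days; stage fits used all 17 with genotype as a term. The model was also run on simulated data with independent noise for each gene and library. That run does not cover deviations that many genes of a library share, and its outcome is not given here. Since no group had a replicate, the spread is that of genotype effects between stages, or of stage effects between genotypes, and not that between cultures. Gene positions and UTRs came from GENCODE M21, which held 96.6% of the IDs.

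All 9 members are described. Of each partner list, up to 2 called genes per direction with the largest differences are given, with the count for the whole list, and the most alike genes are named proteins ranked by Pearson's r. The members and lists were chosen with earlier results of these data known. Alternatives were a pseudocount of 0.1, no filter or a filter of 5 FPKM, upper-quartile scaling, quantile normalization, leaving out each stage or genotype in turn, and fits without part of the KI or KO libraries. The fit without the WT libraries of MEF and day 4 was added after seeing the data.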

Additional observations from a re-analysis of the deposited data

Results flagged for a closer look

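Listed here are targets with every late library (days 4, 6 and 7) on one side of WT and both early libraries (MEF and day 0) on the other. The pattern was sought in all 9 targets in KI and in KO, and its share over all genes was not counted. Runx2 in KI was 0.33 higher than WT over the late days and slightly lower in MEF (-0.07) and at day 0 (-0.02). The change of this difference was 0.37 ± 0.23 (SE), with an adjusted p of 0.660 in limma. It was 0.16 without the WT libraries of MEF and day 4 and 0.14 without the day 4 libraries. Over the late days Trp63 in KO was 0.46 higher, Lasp1 in KO was 0.44 higher and Msi2 in KO was -0.33 from WT. In MEF and at day 0 Trp63 in KO was at -0.02 each, from values listed at 0. Lasp1 in KO was at -0.09 and -0.40 there, and Msi2 in KO at 0.05 and 0.25. For these 3 KO comparisons the change from early to late was not tested.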

How the results depend on the processing

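No paired analysis was possible because each group holds 1 library and the labels give no replicate numbers; the fits match libraries by stage or by genotype instead. Calls in KI against WT over 5 stages were 55, 28 with a filter of 5 FPKM, and 30 to 42 leaving out 1 stage. At the late days they were 338, 576 with a pseudocount of 0.1, 188 without the WT libraries of MEF and day 4, and 25 (without day 7) to 2418 (without day 4) leaving out 1 stage. The change from early to late had 10, 36 without those WT libraries, and 3 to 164 leaving out 1 stage. KO against WT had 2037, 1356 with the filter of 5, 5317 without those WT libraries, and 24 (without day 6) to 7705 (without day 4) leaving out 1 stage. KI against KO had 6404, and 1151 to 8708 leaving out 1 stage. Day 4 against day 0 had 3182, 1899 without the late KI libraries, and 871 to 3274 leaving out 1 genotype. Against day 7 iPSC had 7082 and 2367 to 6934, and against MEF 5955 and 2789 to 4751, leaving out 1 genotype. The cause of these shifts was not tested; each omission also leaves fewer libraries. Upper-quartile scaling moved the split of higher and lower calls from 101 and 237 to 154 and 199 in KI against WT, from 1314 and 723 to 695 and 1046 in KO against WT, from 1446 and 4958 to 3066 and 2632 in KI against KO, and from 1756 and 1426 to 1491 and 1853 for day 4 against day 0. Quantile normalization gave 179 and 187, 841 and 1034, 3026 and 2837, and 1246 and 1777. The difference of Abl1 in KO from WT ran from -0.24 (without day 4, the 1 reversal) to 0.16 (without day 6). Of the tested member differences under these alternatives, 606 kept their direction and side of the threshold, 37 changed sign with no call either way, 46 lost and 14 gained a call. With CATTTCA sought in any annotated UTR, 9 of 9 targets held it.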

Other observations

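Skp2 overlaps Lmbrd2 on the opposite strand without sharing an exonic base, and Lmbrd2 was at 1.51 FPKM in the WT day 4 library and at 4.96 to 7.87 in the other 16. Bmi1, Abl1, Src, Lasp1 and Runx2 were also at their lowest WT levels before iPSC in that library. These were 11.1, 19.3, 19.8, 65.3 and 3.57 FPKM.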
